A study of Mus musculus with 13 samples.

Results

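The accessible chromatin over the starts of the ribosomal protein genes was described in mouse embryonic limb and forebrain. The members were the protein-coding genes of chromosomes 1 to 19 in the GENCODE M21 annotation whose symbol is Rpl or Rps, then a number, then at most a single letter a or l. This rule found 72 genes, 29 named for the small (40S) and 43 for the large (60S) ribosomal subunit, of 20807 protein-coding gene starts on the same chromosomes. The rule uses no measured value, though it was chosen with earlier results of these data known. Genes on chromosome X were outside the rule.

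A ribosome is built from ribosomal RNA and a fixed set of ribosomal proteins, each needed in about the same number of copies, and each made from its own gene elsewhere in the genome. These genes are transcribed by RNA polymerase II in nearly every growing cell, and many of their mRNAs begin with a C followed by a run of pyrimidines, the 5′ terminal oligopyrimidine (TOP) tract, through which their translation is adjusted to nutrient and growth signals. Their promoters are usually rich in CpG and open, so they serve as a reference for steady chromatin accessibility.

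The assay was ATAC-seq, in which the Tn5 transposase inserts sequencing adapters into open chromatin, applied to 50000 cells per library from B6CBAF1 embryos at E12.5, a stage counted in embryonic days from the mating. Distal forelimb (the future hand), proximal forelimb (the future arm) and forebrain were each profiled in wild type (wt) and in embryos of line II1TDOM 542, called allele 542, with 2 replicates in each of the 6 groups. Allele 542 is a single line in which the distal limb enhancer II1, an HBB promoter and a LacZ reporter were inserted in T-DOM, the domain on chromosome 2 that holds the proximal limb enhancers of the Hoxd genes. According to the methods of the study, each replicate was a separate pool of 3 to 5 embryos, and the wt reads were mapped on mm10 and the allele 542 reads on a genome that holds the insertion. Genotype and mapping genome therefore cannot be told apart, and with a single line neither can allele and line. An additional wt distal forelimb library from earlier work was kept apart from the 12.

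Each library came as a list of regions called on its own, with the fold at the summit of each region, which is the number of tags (read ends) under the summit over the local background, both plus 1. A member was given the strongest region that overlapped 500 bp on either side of its gene start. Its level is given as this fold, which has no unit, or as a percentile, the share of the regions of that library with a lower fold. The 12 libraries held 85104 to 118339 regions, and 37500000 to 70700000 tags as estimated from the background. At the members the median count under the summit was 168 to 436 tags per library, which leaves a median counting error of 4.79% to 7.72%. Members with few tags are less certain, since at the weakest member of each library the counting error was 9.09% to 27.7%. These errors cover counting only.

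Stretches of promoter are shown first for the members whose starts were the most and the least open or differed between groups. They come from the RefSeq promoter table (build GRCm38.p6), which matched 53 of the 72 members, and run 5′ to 3′ from 60 bases before to 15 bases from the RefSeq start, 75 bases in all. Capitals mark the oligopyrimidine start, a C within 5 bases of the start followed by at least 4 bases that are C or T. No sequence is shown for Rps20, Rpl3, Rpl36, Rpl23a and Rpl8. The regions below were searched around the GENCODE gene start, and the RefSeq start can lie elsewhere, as for Rps18, 336 bp downstream.

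The promoters with the highest levels were those of Rps7 (chr12:28635939-28636013, minus strand), Rpl34 (chr3:130730323-130730397, minus strand), Rps13 (chr7:116334176-116334250, minus strand) and Rps6 (chr4:86857353-86857427, minus strand).
Rps7: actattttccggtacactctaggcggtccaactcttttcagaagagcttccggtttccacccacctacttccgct
Rpl34: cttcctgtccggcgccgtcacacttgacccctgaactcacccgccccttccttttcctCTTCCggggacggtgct
Rps13: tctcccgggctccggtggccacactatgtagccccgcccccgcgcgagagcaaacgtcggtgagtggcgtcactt
Rps6: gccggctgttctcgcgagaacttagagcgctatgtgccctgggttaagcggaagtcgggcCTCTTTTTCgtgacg

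The lowest levels at a gene start that could be shown were those of Rpl19 (chr11:98026864-98026938, plus strand) and Rps24 (chr14:24490693-24490767, plus strand). The RefSeq start lay 214 bp downstream of the gene start for Rpl19 and 3628 bp downstream for Rps24. The letters shown for Rps24 thus lie outside its region with the low level, near a second coding start 3556 bp downstream.
Rpl19: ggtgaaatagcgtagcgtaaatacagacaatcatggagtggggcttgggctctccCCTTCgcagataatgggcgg
Rps24: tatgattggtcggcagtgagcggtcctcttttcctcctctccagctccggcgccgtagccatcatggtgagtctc

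Members that differed between groups were Rps15 (chr10:80292371-80292445, plus strand), Rpl6 (chr5:121204441-121204515, plus strand), Rps12 (chr10:23787195-23787269, minus strand), Rps18 (chr17:33955651-33955725, minus strand) and Rpl28 (chr7:4792905-4792979, plus strand).
Rps15: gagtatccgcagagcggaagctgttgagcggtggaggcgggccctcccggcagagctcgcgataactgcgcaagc
Rpl6: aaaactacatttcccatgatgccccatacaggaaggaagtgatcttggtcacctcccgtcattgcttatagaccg
Rps12: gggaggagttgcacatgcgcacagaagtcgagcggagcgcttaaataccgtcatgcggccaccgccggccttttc
Rps18: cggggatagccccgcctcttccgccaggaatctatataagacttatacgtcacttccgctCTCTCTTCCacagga
Rpl28: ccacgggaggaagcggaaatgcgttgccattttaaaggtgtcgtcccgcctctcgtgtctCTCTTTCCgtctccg

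Among these stretches Rpl34, Rps6, Rpl19, Rps18 and Rpl28 carry an oligopyrimidine start, and the others have none under the definition used. Over all 53 promoters it was found in 24 (45.3%), against 19.05% of the 15687 promoters in the table, and its length ran from 5 to 17 bases with a median of 8. In 40S members it was present in 11 of 21 promoters and in 60S members in 13 of 32. The tract was searched only within these few bases of the RefSeq start, so a tract farther away was not counted.

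Across the whole promoter, from 250 bases before to 50 bases after the start, 9 short motifs were searched on both strands. The ETS core CCGGAAG, bound by ETS factors such as GABP, was in 39.6% of member promoters and 12.7% of all promoters. The palindrome TCTCGCGA was in 18.9% of member promoters, 10 in number and Rps6 among them, and in 1.49% of all promoters. The cAMP response element TGACGTCA was in 9.43% against 2.46%, and the YY1 motif AAGATGGC in 7.55% against 3.28%. The shares were closer for the GC box GGGCGG (54.7% against 49.3%), the E-box CACGTG (9.43% against 8.13%) and GCATGCGC, a part of the NRF1 motif (5.66% against 3.82%). The CCAAT box (28.3% against 38.2%) and the TATA box TATAAA (3.77%, 2 promoters, against 12.97%) were less frequent at the members.

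In the 100 bases before the start alone, the ETS core was in 20.8% of member promoters and 6.64% of all, and TCTCGCGA in 15.1% against 0.886%. The members' CpG content was also high for their base composition, with a median observed to expected ratio of 0.868 against 0.616, while their G and C content was ordinary at 56.7% against 57.3%. A match is a stretch of letters and shows no binding. As a description, the 18 members with an ETS core and a region in all 12 libraries had a median percentile of 97.5 and the 30 without had 94.8. With TCTCGCGA it was 92.0 (10 members) and without 96.6 (38 members), and with an oligopyrimidine start 95.7 (22 members) against 96.1 (26 members).

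A region lay within 500 bp of the gene start of 65 of the 72 members (90.3%) in all 12 libraries, 26 of 29 for the 40S and 39 of 43 for the 60S subunit. Of all protein-coding gene starts, 57.0% had a region in all 12. It held the gene start itself in every library for 63 of the 65 (96.9%), as for 87.7% of all starts with a region in all 12, and in no library for Rpl3 and Rpl35, where it held the start of a neighbour on the other strand, Syngr1 and Arpc5l. Among the exceptions were 3 paralogues with restricted expression. Rpl3l, the striated muscle form of Rpl3, and Rpl10l, a testis form of Rpl10, had no region in any library. Rpl39l, a paralogue of Rpl39 known from testis, had a weak region in 3 proximal forelimb libraries, with folds of 4.52 in wt replicate 2 and 4.55 and 2.80 in the allele 542 replicates, on 29, 22 and 13 tags. No region over its start was called in the other 9 libraries. Rps27l, a paralogue of Rps27 that responds to p53, was unlike these: its start was open in every library, at a mean percentile of 97.8 ± 0.810 (SD, n = 12).

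Rps2, Rps10, Rps14 and Rpl17 are constitutive members that also had no region at their gene start. For each of them a region lay in all 12 libraries over the start of another coding transcript of the same gene. That start was 1947 bp (Rps2), 2194 bp (Rps10), 27498 bp (Rps14) and 1919 bp (Rpl17) downstream of the gene start, and the mean percentile there was 94.1 ± 1.27, 97.2 ± 1.23, 94.7 ± 0.825 and 94.98 ± 1.55 (SD, n = 12). With any coding transcript start allowed, 69 of 72 members (95.8%) had a region in all 12 libraries, against 61.2% of all genes, and only the 3 restricted paralogues did not.

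The 65 members stood high among the regions of each library. Their mean percentile over the 12 libraries had a median of 95.5 (interquartile range 90.1 to 98.1), and that of the 11868 gene starts with a region in all 12 was 92.9 (84.0 to 96.6). A mean percentile of at least 90 was reached by 50 members (76.9%) and by 61.4% of all these starts. Members of the 40S subunit had a median of 97.1 and those of the 60S subunit 93.8, with 23 of 26 and 27 of 39 at or above 90. The members' median fold was 16.2 against 14.0 for all starts. Within each library the share of members at or above the 90th percentile lay between 66.7% and 83.1%. The values by library and subunit are drawn in the plot of all members' percentiles.

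**Figure D1:**
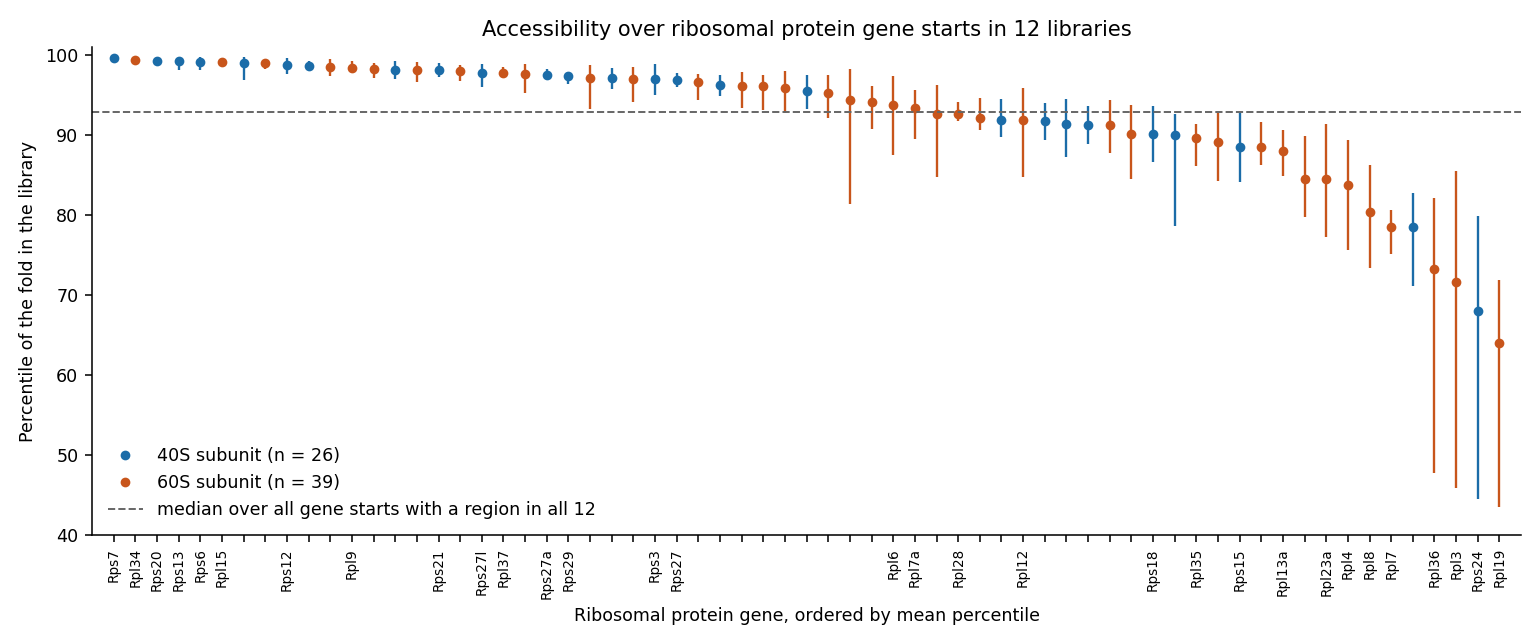
Percentile of the fold in the library (vertical axis) for the 65 members with a region in all 12 libraries, ordered by their mean (points) with the range over 12 libraries (vertical lines) and coloured by subunit, with the symbols of members named in the text. The dashed line is the median over all gene starts with a region in all 12 (92.9), and members fall from Rps7 at 99.6 to Rpl19 at 63.9 with wider ranges at the low end.

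The highest member was Rps7, a 40S protein, at a mean percentile of 99.6 and folds from 19.7 to 25.4. Rpl34 (60S) followed at 99.4, then Rps20 at 99.4, Rps13 at 99.3 and Rps6, the 40S substrate of S6 kinase, at 99.2. The lowest value of these 5 in any library was 98.2. Neighbours in this order differed by less than the SD over libraries, which was 0.198 to 0.475 percentile points.

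At the other end stood Rpl19 (63.9 ± 8.75), Rps24 (68.0 ± 10.8), Rpl3 (71.6 ± 13.8) and Rpl36 (73.2 ± 9.05; SD, n = 12). These 4 had the largest SD of the 65 members, with folds of 4.07 to 7.24 for Rpl19 and 4.01 to 8.94 for Rps24. The region of Rps24 also holds the start of Polr3a and that of Rpl3 the start of Syngr1. For Rps24 and Rpl3 the low level was that of the region found within 500 bp of the gene start chosen by the rule. For Rpl3 that region did not reach the gene start in any library, and its summit lay 3 to 82 bp from the Syngr1 start. Rps24, a 40S protein, had a second coding start 3556 bp downstream at a mean percentile of 95.8 ± 1.09, and Rpl3, a 60S protein near the peptidyl transferase centre, had one 8462 bp downstream at 95.7 ± 1.37 (SD, n = 12). At those starts both genes stood near the median member.

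The fold sets a summit against its surroundings, so the tags themselves were recovered from the fold and the p-value of each summit. Given as normalized tags, the number under the summit for each 1000000 tags of the library, the median member had 5.23 and the median start 4.38. Local background, as a multiple of the genome-wide level of the library, was 2.76 and 2.77. The most tags were at Rpl37 (19.7 ± 3.59 normalized tags, SD, n = 12), which had a background of 9.64 times the genome-wide level and a mean percentile of 97.8. Rpl7 (8.50 normalized tags) and Rpl13a (9.59) had more tags than the median member, with backgrounds of 9.74 and 7.93 times, and percentiles under 90. The region of Rpl7 also holds the start of Rdh10. Rpl36 had 4.47 normalized tags on a background of 5.55 times. Few tags were found for Rpl3 (1.09 normalized tags), Rpl4 (1.48) and Rpl19 (1.67), on backgrounds of 1.14, 1.28 and 2.46 times. The region taken for Rpl3 holds the start of Syngr1 and not that of Rpl3, and the region of Rpl4 also holds the start of Zwilch. Over the 65 members the normalized tags and the fold had a Spearman correlation of 0.58, a description across genes that share libraries.

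**Figure D2:**
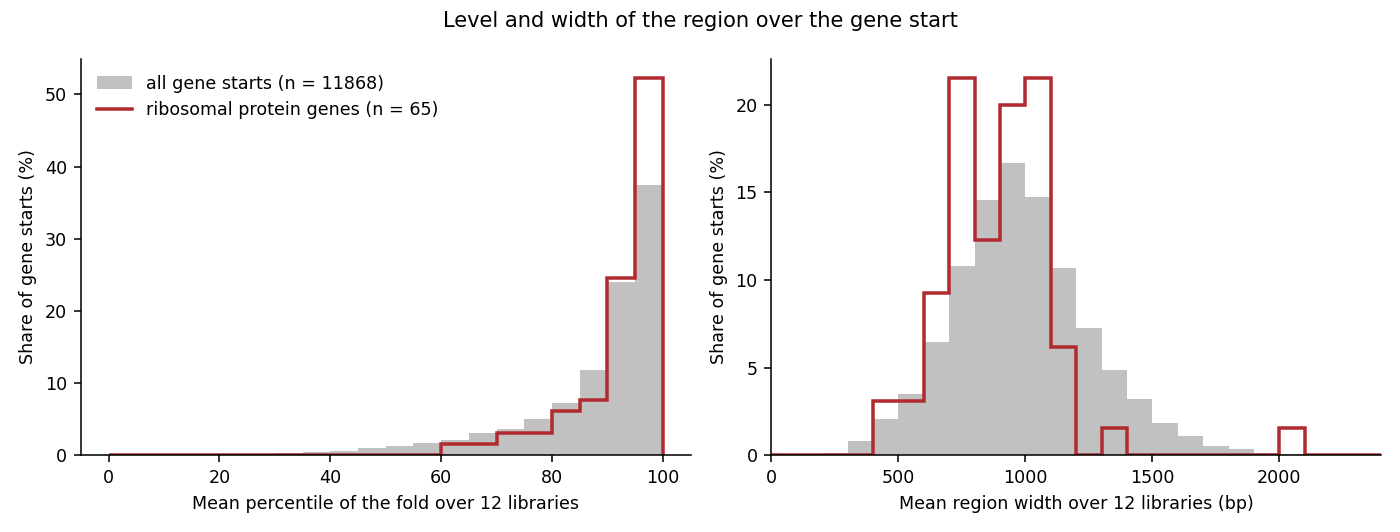
Share of gene starts in percent (vertical axes) by mean percentile of the fold (left) and by mean width of the region in bp (right), for the 65 members and the 11868 starts with a region in all 12 libraries. Members are shifted to higher percentiles (median 95.5 against 92.9) and slightly to narrower regions (901 against 970 bp).

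The order of the members was much the same in every library. Spearman correlations of the fold between libraries lay between 0.878 and 0.965 over all 66 pairs, and between 0.911 and 0.965 for the 6 pairs of replicates. These points share genes and base composition, so the values are descriptions. The median SD of log2 fold over the 12 libraries was 0.131 for members and 0.146 for all starts.

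Regions over the members were somewhat narrow, with a median width of 901 bp against 970 bp. The widest was at Rpl7 (2059 bp on average), ahead of Rps29 (1325 bp) and Rpl15 (1190 bp), and the narrow ones included Rps24 (415 bp) and Rpl36 (582 bp). The Rpl7 region also holds the start of Rdh10 in all 12 libraries and reached a median of 1508.5 bp upstream of the Rpl7 start. The strongest summit lay close to the gene start, with a median position of 13 bp upstream for members and 23 bp upstream for all starts. It was within 50 bp of the start for 35 of 65 members (53.8%) and 42.3% of all starts. A single summit was typical of 22 members (33.8%) and 29.4% of all starts. For 15 of the 65 (23.1%) the region also held the start of another protein-coding gene, as it did for 19.1% of all starts. By percentile the first 5 of them were Rpl15 with Nkiras1, Rpl9 with Lias, Rps27a with Clhc1, Rps27 with Rab13 and Rpl7a with Med22. The signal of such a shared region cannot be divided between its genes.

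Differences between groups were tested with limma on the log2 fold, quantile normalized over the 11868 starts, and p-values were adjusted by Benjamini-Hochberg over all of them. A fold in bulk tissue mixes the share of cells in which a start is open with how open it is in each, and these cannot be told apart. Between limb (8 libraries) and forebrain (4 libraries), most members differed little in the fold. The median difference, limb minus forebrain, was -0.06 on the log2 scale for the 65 members and -0.0009 for all starts, and 42 members lay below 0 (50.3% of all starts did). Past the threshold of 0.05 there were 2 members higher and 6 lower in limb, while 12.51% of all starts were higher and 12.2% lower. The members' count is below this background in the first direction and near it in the second. The plot of these differences for all 65 members shows most of them within the range of the middle of all starts.

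**Figure D3:**
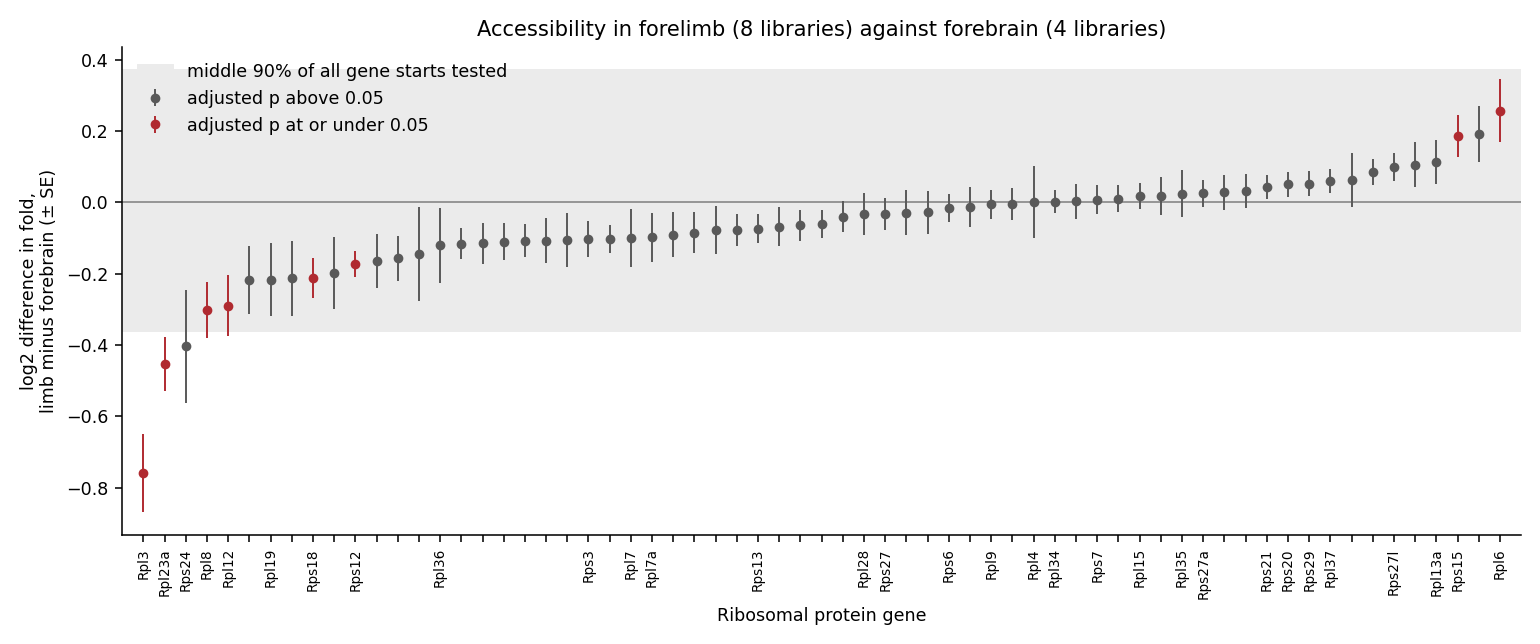
Difference in log2 fold, limb minus forebrain, with its SE for each of the 65 members (limma), with the symbols of members named in the text and those at an adjusted p of at most 0.05 in red. The grey band holds the middle 90% of all starts tested, and Rpl3, Rpl23a and Rps24 lie outside it.

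The largest of these differences was at Rpl3 (gene start at position 80091868 of chromosome 15, minus strand). Its fold in the limb libraries ran from 4.24 to 7.58 with a median of 5.82. In forebrain it was 10.2 and 10.9 in wt and 10.7 and 10.96 in allele 542. The groups of libraries did not overlap, and the difference was -0.76 ± 0.11 (log2, SE; adjusted p = 0.000296). The region did not reach the Rpl3 start in any library, since its nearest edge was 63 to 451 bp downstream of it. It holds the start of Syngr1, on the plus strand and 534 bp downstream of that of Rpl3, and its summit lay 3 to 82 bp from the Syngr1 start, so the difference cannot be assigned to Rpl3. At the strongest coding start of Rpl3, 8462 bp downstream, the difference was 0.02 (adjusted p = 0.81), and at the start of its principal transcript it was also 0.02.

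Rpl23a, a 60S protein at the exit of the peptide tunnel, had folds from 7.45 to 9.52 with a median of 8.68 in limb. In forebrain they were 13.8 and 13.5 in wt and 11.8 and 12.0 in allele 542, all above every limb library (-0.45 ± 0.08, adjusted p = 0.000969). Rps12, a 40S protein, had a high level everywhere. Its folds were 17.5 to 21.2 with a median of 18.4 in limb, and 23.1, 23.2, 23.1 and 24.2 in forebrain (-0.17 ± 0.04, adjusted p = 0.00370). Rps12 was thus among the most open starts of both tissues while the limb and forebrain values stayed apart.

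Rps18, a 40S protein whose region also holds the start of Vps52, had limb folds of 10.1 to 12.4 with a median of 10.8, against 14.4, 15.7, 13.5 and 13.4 in forebrain (-0.21 ± 0.06, adjusted p = 0.0135). Rpl8, a 60S protein of the peptidyl transferase region, had 6.80 to 9.26 with a median of 7.56, against 11.1, 9.35, 9.99 and 10.9 (-0.30 ± 0.08, adjusted p = 0.0139). For Rpl12, of the stalk base, the values were 9.23 to 14.7 with a median of 12.53, against 17.7, 15.4, 15.2 and 16.9 (-0.29 ± 0.09, adjusted p = 0.0257). The forebrain libraries were above all limb libraries at each of the 3, at Rpl8 by a narrow gap. Such a gap in unscaled folds was not particular to the called members. At Rps13, which was not called, folds were 23.3 to 23.8 in forebrain and at most 22.5 in limb. At Rps9, also not called, they were 19.5 to 20.6 and at most 18.4. The share of all starts with such a gap was not counted. The region of Rpl12 also holds the start of Lrsam1.

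In the other direction there were 2 members. Rps15, a 40S protein, had limb folds of 10.1 to 12.7 with a median of 11.9 and forebrain folds of 11.5, 10.5, 11.5 and 11.04 (0.19 ± 0.06, adjusted p = 0.0332). Rpl6, a 60S protein, had 13.7 to 17.6 with a median of 14.5, against 17.3, 11.8, 12.7 and 15.1 (0.26 ± 0.09, adjusted p = 0.0480). For both the unscaled folds of the tissues overlap.

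Rps12, Rpl23a and Rpl3 kept their call without any of the 12 libraries in turn, and Rpl8, Rps18 and Rpl12 in 10, 10 and 9 of the 12. Rps15 and Rpl6 kept theirs in only 4 and 3. Without scaling between libraries the members called were 0 higher and 45 lower, where 6.19% of all starts were higher and 43.8% lower, and all starts had a median of -0.13, since folds were higher in the forebrain libraries in general. With the additional wt library 1 member was higher and 4 lower, where 10.9% of all starts were higher and 9.86% lower. With the log2 of the recovered tags in place of the fold, 3 members were higher and 22 lower, where 23.1% of all starts were higher and 24.4% lower. The median difference by tags was -0.13 for the members and -0.01 for all starts. On this scale Rpl3 (-1.15), Rps12 (-0.54), Rpl23a (-0.47), Rpl12 (-0.35), Rps18 (-0.30) and Rpl6 (0.30) kept their call, Rpl8 (-0.17, adjusted p = 0.218) lost it, and Rps15 changed direction (-0.22, adjusted p = 0.0351). The 2 other members higher by tags were Rps27l (0.39) and Rps21 (0.17). Rps12 had 5.15 to 8.34 normalized tags in limb and 10.3 to 13.02 in forebrain. Depth moved with the tissue, at 37500000 to 54500000 tags in limb and 51400000 to 70700000 in forebrain, and its part in these differences was not tested.

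**Figure D4:**
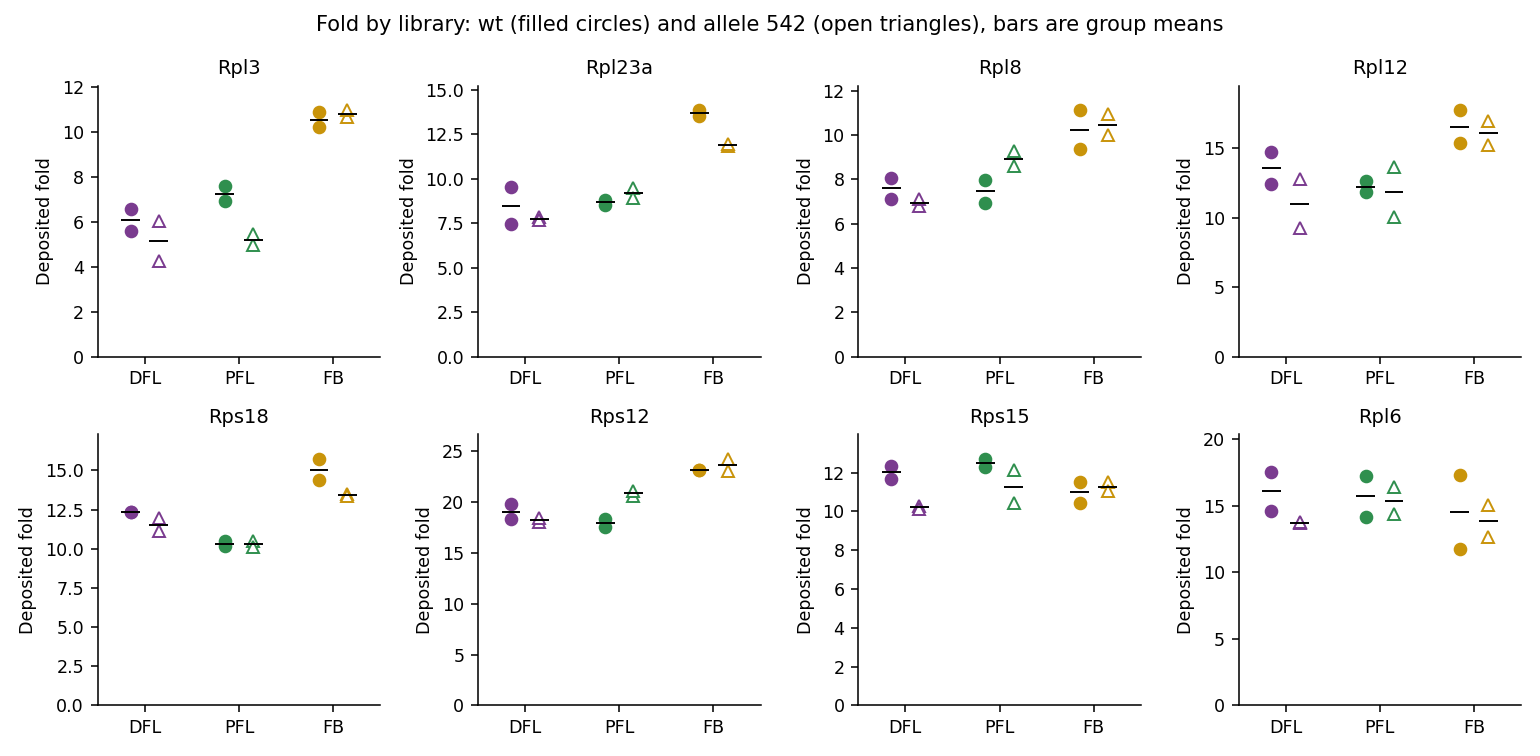
Deposited fold in each library (vertical axes from 0) for the 8 members called between limb and forebrain, with wt as filled circles, allele 542 as open triangles and group means of 2 replicates as bars. DFL is distal forelimb, PFL proximal forelimb and FB forebrain. At Rpl3, Rpl23a, Rps12, Rps18, Rpl8 and Rpl12 every forebrain value is above every limb value, and at Rps15 and Rpl6 the values overlap. Unscaled folds were higher in forebrain in general, and members that were not called, such as Rps13 and Rps9, separate likewise.

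Markers of the tissues followed the labels in part. The summed fold at the starts of 6 distal limb markers was 41.4 to 44.9 in distal forelimb, 28.0 to 32.3 in proximal forelimb and 24.2 to 28.9 in forebrain. At 9 forebrain markers it was 47.6 to 53.1 in forebrain and 25.3 to 46.0 in limb. At 6 proximal forelimb markers it was 29.6 to 30.7 in proximal and 26.4 to 28.8 in distal forelimb of wt. In allele 542 it was 27.6 to 28.2 in proximal and 23.9 to 24.3 in distal forelimb. In forebrain it was 26.2 to 29.4 in wt, overlapping wt distal forelimb, and 27.8 to 29.5 in allele 542, overlapping allele 542 proximal forelimb. Across 6 general limb markers, of which Prrx2 had no region in any group, it was 26.8 to 32.0 in limb and 20.04 to 26.1 in forebrain. For other cell types the sums at 4 starts each were 15.7 to 19.2 in proximal forelimb, 7.21 to 13.2 in distal forelimb and 4.04 to 9.51 in forebrain for muscle, 12.2 to 16.2 in limb and 6.64 to 10.0 in forebrain for endothelium, and 4.06 to 8.20 and 0 to 4.68 for surface epithelium. The 4 blood starts summed to 0 to 5.02, with Hba-a1 and Klf1 at no region in both replicates of every group. Among the tissue markers with a region in all 12 libraries, Twist1 and Hoxd13 were higher and Emx1, Emx2 and Sox1 lower in limb, as their labels have it. Against their labels, the forebrain marker Tbr1 was higher in limb (0.56 ± 0.15, limma adjusted p = 0.0135), and the limb marker Prrx1 (-0.75 ± 0.12, adjusted p = 0.000647) and the distal limb marker Sall3 (-0.51 ± 0.12, adjusted p = 0.00850) were lower. Tbx5, a forelimb gene, had no region over its gene start in both allele 542 proximal forelimb libraries. Cell makeup moved with tissue, and its part in the members' differences was not tested.

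Between distal and proximal forelimb no member passed the threshold by limma. The 65 differences ran from -0.42 to 0.19 with a median of -0.01. Of them 4 had an unadjusted p under 0.05, as did 14.1% of all starts. Of all starts 0.632% were higher and 0.362% lower in distal forelimb. By recovered tags 1 member passed, Rpl36, a 60S protein, with 3.86 and 4.15 normalized tags in wt and 2.15 and 3.26 in allele 542 distal forelimb against 5.19, 4.10, 4.62 and 3.74 in proximal forelimb. The ranges overlap, and the difference was -0.41 ± 0.10 (adjusted p = 0.0101) where 4.6% of all starts were higher and 2.69% lower.

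Allele 542 against wt gave 0 members past the threshold for the fold by limma, where 0.135% of all starts were higher and 0.286% lower. An unadjusted p under 0.05 was reached by 4 members and by 13.6% of all starts. The differences ran from -0.15 to 0.27 with a median of -0.01. By tags 2 members passed, against 2.78% of all starts higher and 1.9% lower. Rps3, a 40S protein at the mRNA entry, had 3.34 and 3.75 normalized tags in wt and 2.88 and 3.68 in allele 542 distal forelimb, 3.92 and 3.61 against 5.12 and 4.24 in proximal forelimb, and 4.13 and 3.34 against 5.54 and 5.68 in forebrain (0.40 ± 0.08, adjusted p = 0.00128). Its values were higher in allele 542 in proximal forelimb and forebrain and overlapped in distal forelimb. Rps6 had 7.88 and 9.19 against 5.37 and 6.42, 8.53 and 8.45 against 7.87 and 5.85, and 12.7 and 11.7 against 9.65 and 11.05 in the same order (-0.25 ± 0.06, adjusted p = 0.00696). Every wt library was above the allele 542 libraries of its tissue at Rps6. Whether the genotype difference of the fold itself differed between limb and forebrain, or between distal and proximal forelimb, was tested too. In each case 0 members passed by limma, while 0.00843% and 0.0169% of all starts passed. An unadjusted p under 0.05 was reached by 1 member in each case, and by 6.45% and 7.29% of all starts.

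The width of the region gave a small number of calls. Limb minus forebrain, 0 members were wider and 3 narrower, against 3.09% and 2.72% of all starts. Rpl28, a 60S protein, spanned 552 to 878 bp with a median of 682.5 bp in limb and 979, 850, 829 and 839 bp in forebrain (-0.30 ± 0.05, adjusted p = 0.0139), with overlap. Another was Rps7 (-0.21 ± 0.04, adjusted p = 0.0243), whose limb values divided by genotype. Between distal and proximal forelimb 0 members passed by limma, where 0.135% of all starts were wider and 0.118% narrower. An unadjusted p under 0.05 was reached by 6 members and by 8.69% of all starts.

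Rps7 was also the 1 member with a different width in allele 542, where 0.0843% of all starts were wider and 0.329% narrower. In wt its region spanned 1069 and 1101 bp in distal forelimb, 1107 and 1058 bp in proximal forelimb and 1117 and 1093 bp in forebrain. In allele 542 it spanned 685 and 673 bp, 687 and 670 bp, and 940 and 970 bp. Without scaling between libraries 3 members were narrower and 0 wider, where 3.35% of all starts were narrower and 0.059% wider. At Rps7 every allele 542 library was narrower than every wt library (-0.38 ± 0.04, adjusted p = 0.0124). Within distal forelimb the difference was -0.54 ± 0.06 (adjusted p = 0.0331; 0.194% of all starts narrower) and within proximal forelimb -0.45 ± 0.06 (adjusted p = 0.0354; 0.295% narrower). Within forebrain it was -0.16 ± 0.06 (adjusted p = 0.964). The test of whether limb and forebrain differ in this did not pass (-0.33 ± 0.08, adjusted p = 0.319).

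The narrowing was on both sides of the Rps7 start in limb. Upstream the region reached 391 to 439 bp in the 6 wt libraries and 265 to 287 bp in the 6 allele 542 libraries. Downstream it reached 629 to 690 bp in wt and 395 to 421 bp in allele 542 limb, but 657 and 697 bp in allele 542 forebrain. The additional wt distal forelimb library had 279 bp upstream and 718 bp downstream, 998 bp in all, so its upstream edge lay within the range of allele 542. The fold at the summit did not follow the width, at 19.7 to 23.7 in wt and 21.5 to 25.4 in allele 542. The median width over all starts was also lower in the allele 542 limb libraries, at 858 to 899 bp against 960 to 1001 bp in wt limb, and its part in the Rps7 difference was not tested beyond the quantile normalization of widths.

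**Figure D5:**
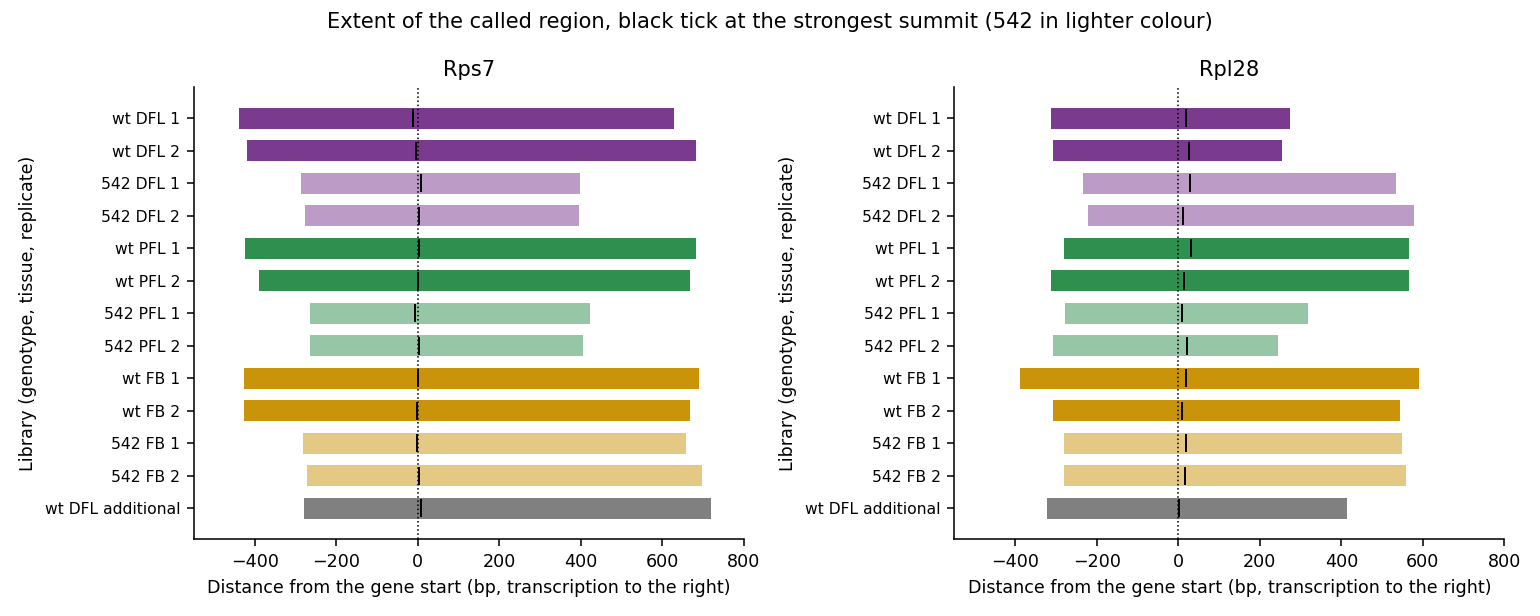
Extent of the called region around the gene start in bp (horizontal axis, transcription to the right) at Rps7 (left) and Rpl28 (right), with a bar for each library, allele 542 in lighter colour and a tick at the strongest summit. Tissues are abbreviated DFL (distal forelimb), PFL (proximal forelimb) and FB (forebrain). The Rps7 bars of allele 542 limb are 670 to 687 bp long against 1058 to 1107 bp in wt limb, and the downstream edge of Rpl28 lies farther out in allele 542 distal and in wt proximal forelimb.

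At Rpl28 the genotype difference in width had opposite signs in the parts of the limb, and passed the threshold in distal forelimb alone. In distal forelimb it was 587 and 561 bp in wt and 769 and 801 bp in allele 542 (0.62 ± 0.08, adjusted p = 0.0334; 0.0253% of all starts wider). In proximal forelimb it was 847 and 878 bp in wt and 596 and 552 bp in allele 542 (-0.31 ± 0.08, adjusted p = 0.192). The difference of the differences was 0.93 ± 0.11 (adjusted p = 0.0263), the only member past the threshold, where 0.0674% of all starts were higher and 0.0843% lower. Most of the change was at the downstream edge, which lay 274 and 253 bp from the start in wt distal forelimb and 533 and 577 bp in allele 542, 565 and 565 bp in wt proximal forelimb and 317 and 244 bp in allele 542. The upstream edge lay 312 and 307 bp from the start in wt and 235 and 223 bp in allele 542 distal forelimb, which is the opposite sense, and 281 and 312 bp against 278 and 307 bp in proximal forelimb. The fold at its summit stayed between 11.8 and 14.5 in limb. The call was kept in only 4 of 12 fits that leave out a library, and was lost with the additional wt library, which spanned 737 bp.

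Other genes of the translation machinery stood at similar levels. The 10 ribosomal protein genes outside the rule, such as Rplp0 and Fau, had a median percentile of 96.1. Among 17 translation factors and related genes with TOP mRNAs the median percentile was 95.4, and 2 were higher and 0 lower in limb by limma, Pabpc1 (0.20 ± 0.06, adjusted p = 0.0223), the poly(A)-binding protein, and Nap1l1 (0.13 ± 0.04, adjusted p = 0.0398), a histone chaperone. Of 73 mitochondrial ribosomal protein genes, whose products serve the separate ribosome of mitochondria, 7 were higher and 10 lower, at a median percentile of 95.3. Of 18 ribosome biogenesis genes 1 was higher, Nip7 (0.12 ± 0.04, adjusted p = 0.0397), and 1 lower, Rrp1 (-0.18 ± 0.05, adjusted p = 0.0220), at 95.6. These counts stand beside the 12.51% and 12.2% of all starts given above.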

How the data were processed

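ATAC-seq libraries of E12.5 forelimb and forebrain were analysed from their deposited region lists. According to the methods, the authors trimmed reads with Cutadapt, mapped them with bowtie2 on mm10 or on the allele 542 genome, removed mitochondrial, discordant and low-quality (MAPQ under 30) pairs and duplicates, converted reads to BED and called regions with MACS2 in each library separately, with each read end widened to 200 bp and no control. The authors' files give, for each summit, a fold ratio (tags over local background, each plus 1) and a p-value, deposited as −log10. No scaling between libraries was made by the authors.

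In allele 542 files, 4218 bp were subtracted from positions on chromosome 2 beyond the insertion. For each gene of GENCODE M21 the strongest region within 500 bp of the gene start was taken, and its fold, percentile and width were used. Tags were recovered from fold and p-value, exactly to a tolerance of 0.01 in −log10 p. Depth per library was 37500000 to 70700000 tags by this estimate. Fold and width were compared with limma 3.58.1 in R 4.3.3 (log2 scale, quantile normalization, 1 mean for each of 6 groups, variance trend) over the 11868 starts with a region in all 12 libraries, at a Benjamini-Hochberg adjusted p of 0.05. Tested on simulated data, the fit with quantile normalization gave a larger share of false calls than the fit without scaling. That share was more than the threshold implies, so calls near the threshold are less certain. The simulated libraries had no difference in scale, unlike the deposited folds, so the simulation cannot rank these fits for the data. Replicates are pools of embryos. The additional wt library entered only as an alternative.

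The members, gene lists, motifs and tests were chosen with earlier results of these data known. Named members were those without a region in all 12 libraries, the 5 highest and 5 lowest by mean percentile, the 3 widest and 3 narrowest, up to 5 called in each direction per comparison, and the first 5 with a shared start. Some genes that this rule names are not reported here, though the counts include them. Rpl12 and the members named for their tags were chosen after their values were seen. Alternatives were other scalings, windows, starts, summits and libraries, the tags in place of the fold, and leaving out each library.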

Additional observations from a re-analysis of the deposited data

Results flagged for a closer look

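The genotype difference in the width of the region over Rpl28, a 60S subunit gene, was compared between the parts of the forelimb because a test of the difference itself passed the threshold. On the log2 scale the difference in distal forelimb exceeded that in proximal forelimb by 0.93 ± 0.11 (SE; limma, adjusted p = 0.0263). In allele 542 the region was wider in distal forelimb (769 and 801 bp against 587 and 561 bp) and narrower in proximal forelimb (596 and 552 bp against 847 and 878 bp). Its forebrain widths were 979 and 850 bp in wt and 829 and 839 bp in allele 542. This contrast of widths was added after the data were seen.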

How the results depend on the processing

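For the fold, limb minus forebrain, the number of members called was 8, and it was 5 with the additional wt distal forelimb library (10.9% of all starts higher and 9.86% lower), 45 without scaling between libraries (6.19% and 43.8%), and 25 by the recovered tags (23.1% and 24.4%). Leaving out each library in turn gave 4 to 10. Counts from fits without a library are given here without the share of all starts, and show only how the number of calls moved. Rpl3 changed direction at any coding transcript start (0.024) and at the start of its principal transcript (0.023), which are other starts, and Rps15 by tags (-0.22), for which the cause was not tested. By tags, 1 member was called between distal and proximal forelimb and 2 by genotype, where the fold gave 0. Leaving out a library gave 0 to 1 between distal and proximal forelimb for the fold and for the width, and 0 throughout for the genotype fold. For the width, limb minus forebrain, leaving out a library gave 0 to 5, and for allele 542 minus wt 0 to 2, with 3 called without scaling (3.35% of all starts narrower). The Rps7 call by genotype was lost without wt forebrain replicate 1, where the difference was -0.39. The Rpl28 difference of widths was lost with the additional library, with missing values allowed and with a replicate block, each giving 0 members, and leaving out a library gave 0 to 2. The median percentile was 92.2 among the 50000 strongest regions, by construction of that list, and 95.3 to 95.7 without each library. The 65 members with a region in all libraries stayed 65 without any single library.

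Libraries with the same replicate number showed little shared deviation in the fold, with correlations between -0.0686 and 0.0884 over pairs of groups. These correlations do not show whether same-numbered libraries shared embryos. With the replicate number as a block in the fit, Rpl6 lost its call between limb and forebrain for the fold, and the other called members kept theirs. Median centring gave 2 higher and 6 lower members, as many as quantile normalization. Of the 11868 starts, 1753 were higher and 1258 lower with median centring. Counting error limits the weakest starts.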
